A study of Rattus norvegicus with 38 samples.

Results

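The genes described here are the matrix metalloproteinases Mmp2, Mmp7, Mmp8, Mmp9, Mmp12 and Mmp14 and the tissue inhibitors Timp1, Timp2 and Timp3, in the lungs of rats that breathed cigarette smoke or room air. They were chosen by symbol: every probe set annotated with exactly 1 of these 9 symbols was taken, which gave 16 of the 20826 probe sets with 1 symbol and 9 of the 14217 genes tested. The animals were 38 females of 2 lines bred from N:NIH rats, one for low intrinsic running capacity (low capacity runners, LCR) and one for high (high capacity runners, HCR). The groups were 12 LCR smoke, 7 LCR sham, 12 HCR smoke and 7 HCR sham animals, all 34 weeks old, and sham animals breathed room air. Exposures ran on 5 days per week for 12 weeks, and RNA from about 25 mg of lung went onto 1 Affymetrix Rat Genome 230 2.0 array per animal. The material is a piece of whole lung, so each value is an average over all its cells. Each running line stands for its own breeding history as well as its running capacity, and the labels name no litter or cage.

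Matrix metalloproteinases (MMPs) are zinc-dependent enzymes that cut collagens, elastin and other proteins outside the cell. Most are secreted as inactive precursors, some are anchored in the cell membrane, and the tissue inhibitors of metalloproteinases (TIMPs) bind and block their active sites. In the lung, macrophages make the elastin-cutting MMP12 and neutrophils store the collagenase MMP8 and the gelatinase MMP9. The balance of such proteases and their inhibitors is much studied in smoke-related emphysema.

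Promoter sequence of 6 of the 9 genes was available from RefSeq (rat build GRCr8), and 3 windows are shown because these genes rose with smoke in the results below. Mmp12 and Mmp7 lie in a cluster of MMP genes on rat chromosome 8, in the gene order Mmp13, Mmp12, Mmp1b, Mmp3, Mmp1, Mmp10, Mmp8, Mmp27, Mmp20 and Mmp7. Timp1 lies on chromosome X. Each line gives the 250 bases before the annotated start, 5′ to 3′ along the gene, for chr8:12866402-12866651 (Mmp12, + strand), chr8:13132793-13133042 (Mmp7, + strand) and chrX:3771123-3771372 (Timp1, - strand). Capitals mark the AP-1 motif, a site type bound by Fos and Jun proteins.
Mmp12: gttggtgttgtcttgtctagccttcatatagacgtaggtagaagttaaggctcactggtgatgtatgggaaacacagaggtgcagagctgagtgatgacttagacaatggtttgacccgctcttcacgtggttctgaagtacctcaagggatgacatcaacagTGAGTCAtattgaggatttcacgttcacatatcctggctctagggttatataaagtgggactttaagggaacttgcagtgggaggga
Mmp7: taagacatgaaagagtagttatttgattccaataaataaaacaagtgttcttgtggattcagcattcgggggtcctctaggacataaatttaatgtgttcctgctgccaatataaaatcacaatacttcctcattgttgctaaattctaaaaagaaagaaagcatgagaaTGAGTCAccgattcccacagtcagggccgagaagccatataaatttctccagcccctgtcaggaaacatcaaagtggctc
Timp1: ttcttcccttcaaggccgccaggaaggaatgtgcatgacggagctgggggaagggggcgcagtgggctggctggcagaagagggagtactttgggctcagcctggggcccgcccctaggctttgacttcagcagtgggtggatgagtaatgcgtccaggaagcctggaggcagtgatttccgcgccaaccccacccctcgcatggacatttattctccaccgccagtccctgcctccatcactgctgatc
The AP-1 motif, spelled TGANTCA and searched on both strands, was found in the Mmp12 window, 87 bases before the start, and in the Mmp7 window, 80 bases before it. The letters were TGAGTCA in both. They were not found in the windows of Mmp8, Timp1, Timp2 and Timp3. Of all 33469 rat promoters of that length, 6.34% held the motif. The motif TATAAA, also searched on both strands and held by 12.9% of promoters, was found along the gene before Mmp12 and Mmp7, and on the opposite strand before Mmp8. The core GCGTG of the aryl hydrocarbon receptor's binding site, searched likewise and held by 25.9%, was found before Timp3 and not in the other windows. A match describes the letters and not whether a factor binds there.

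Levels below are linear intensities. Changes are on the log2(intensity + 16) scale, which understates those of dim genes, and ± after a change is its standard error (SE). A gene is called changed where its limma p, adjusted over the 14217 genes, is under 0.05. The number of arrays limits the precision, and the labels do not say whether samples came from separate batches. Each group has its own range of array numbers, and number order and group cannot be told apart. Lung markers were high on every array (the surfactant gene Sftpc lay between 9830 and 10919). The mean level of heart or skeletal muscle markers was high on 6 arrays (LCR sham 0442, HCR smoke 0410, 0414, 0415 and 0417, and HCR sham 0433), so counts are also given without them. Their heart marker mean was at least 1.74 log2 relative to all arrays. The next highest, HCR sham 0432 at 1.35 and LCR sham 0440 at 1.11, were kept, so some muscle signal remains without the 6. For HCR sham 0432 the 3′ end of Actb stood 2.06 log2 above its 5′ end, a gap that widens in degraded RNA, against at most 0.83 on the other HCR sham arrays. The gap was also wider in sham than in smoke. Its Actb median was 0.84 in LCR sham against 0.65 in LCR smoke, and 0.72 in HCR sham against 0.66 in HCR smoke. For Gapdh the medians were 0.15 against 0.04 in LCR and 0.16 against 0.07 in HCR. RNA quality and exposure are therefore not fully separate, and fits with each gap as a covariate are among the alternatives. HCR sham 0434 had a neutrophil marker mean of 0.43 log2 relative to all arrays, against -1.47 to -0.52 on the other HCR sham arrays. Mmp7, Mmp8 and Mmp9 were dim, among the genes whose mean lay under an intensity of 27.5, and the other 6 members were brighter.

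Smoke raised 4 of the 9 genes in both lines: Mmp7, Mmp12, Mmp14 and Timp1. In HCR lungs Timp2 and Timp3 also fell. In LCR lungs 4 members were called higher and 0 lower, where 50.6% of all genes were called, 22.7% higher and 27.9% lower. In HCR lungs 4 were called higher and 2 lower, where 48.0% of all genes were called, 17.7% higher and 30.4% lower. About 1 gene in 2 changed with smoke, so these counts do not set the members apart from other genes. The median difference of the 9 genes was 0.16 in LCR (-0.005 over all genes) and 0.04 in HCR (-0.03 over all genes). Without the 6 arrays with muscle signal, 4 were called higher and 0 lower in LCR, and 3 higher and 2 lower in HCR, where the call of Mmp7 ended.

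**Figure D1:**
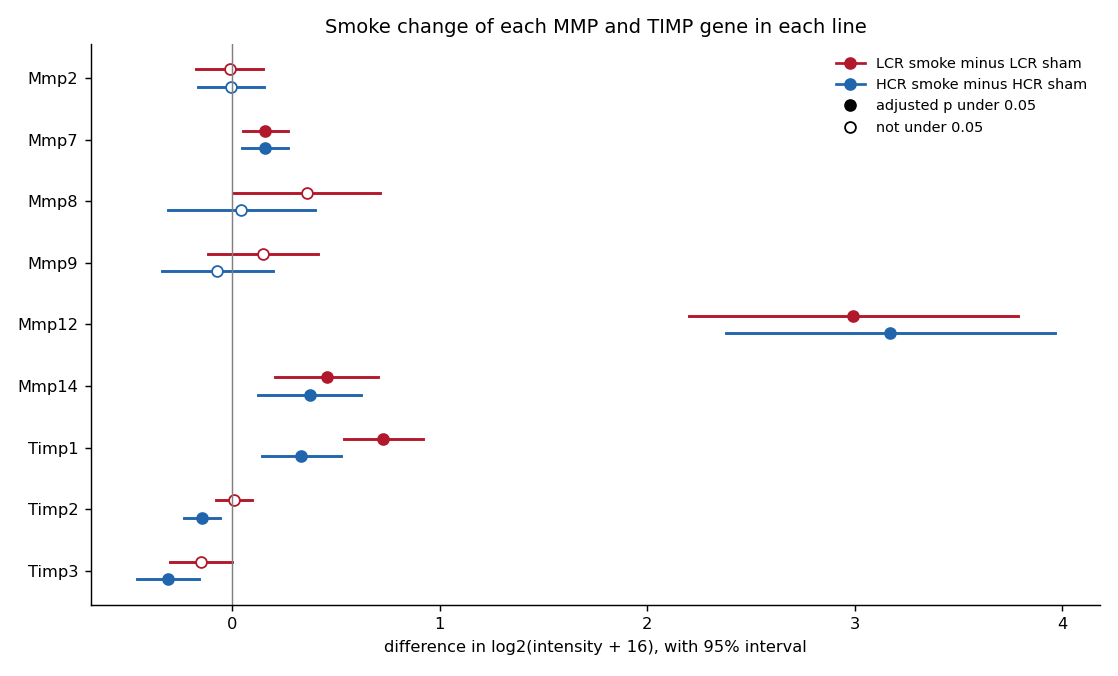
Change with smoke of each member in LCR (red) and HCR (blue) lungs, as the difference of log2(intensity + 16) with its 95% interval. Filled points passed an adjusted p of 0.05. Mmp12 lies near 3 in both lines and every other member lies under 1.

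Mmp12 (probe set 1368530_at), the macrophage elastase, had the largest change of the 9 genes. Its intensity had a lowest value of 195, a median of 380 and a highest of 1011 on the 12 LCR smoke arrays, against 24.2, 34.2 and 64.9 on the 7 LCR sham arrays. On the HCR smoke arrays it was 53.5, 468 and 1857, against 25.2, 30.1 and 37.5 on the HCR sham arrays. The smoke and sham groups did not overlap in either line, as was the case for 14.5% of all genes in LCR and 5.87% in HCR. Mmp12 rose by 2.99 ± 0.39 in LCR (adjusted p = 1.1e-07) and by 3.17 ± 0.39 in HCR (adjusted p = 9.1e-08). The level spread more among HCR smoke animals, with an SD of 1.33 log2, than among LCR smoke animals, with 0.62. The highest HCR smoke array (0418) was 34.7 times the lowest (0419), and the highest LCR smoke array (0426) 5.18 times the lowest (0420). The rise kept its call in both lines under all 51 alternatives run, from 2.87 to 3.45 in LCR and from 2.98 to 3.64 in HCR.

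**Figure D2:**
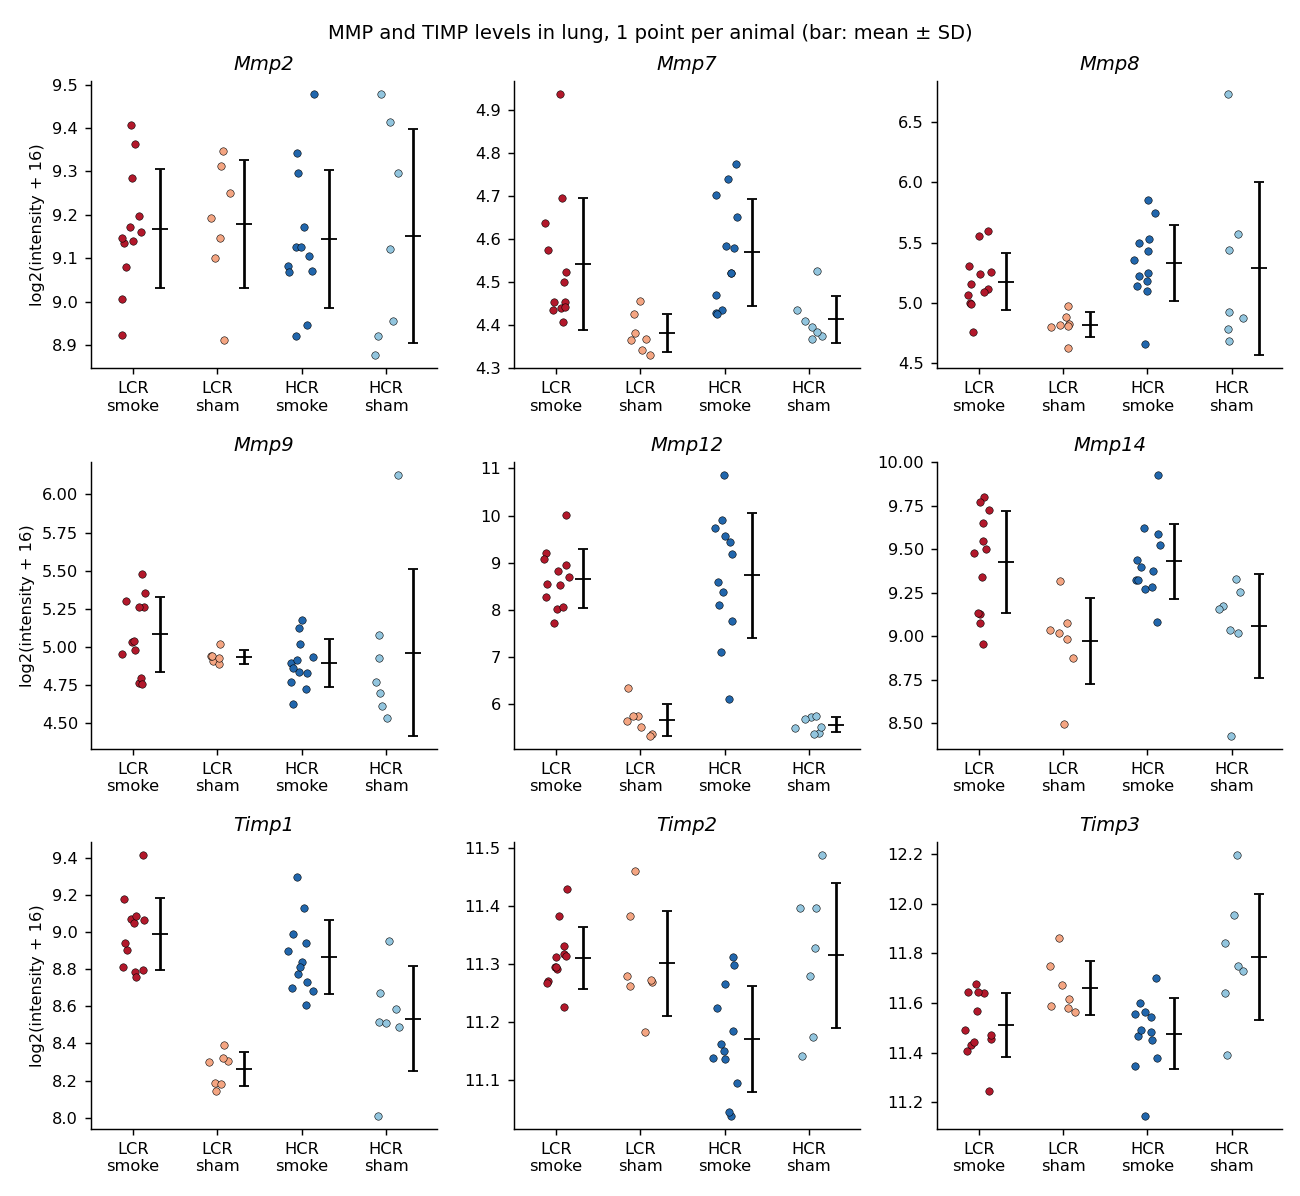
Level of each of the 9 genes as log2(intensity + 16), 1 point per animal, with bars for mean ± SD (n = 12 smoke and 7 sham animals per line). Axes differ between panels and do not start at 0. Mmp12 (both lines) and Timp1 (LCR) have smoke and sham groups that do not overlap, 2 of 9 genes in LCR, where 14.5% of all genes have such groups, and 1 of 9 in HCR, where 5.87% do.

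Macrophage markers moved with Mmp12. Of the 10 measured of 13 listed, 8 were higher and 1 lower (Adgre1) after smoke in LCR (22.7% and 27.9% of all genes). In HCR 7 were higher and 2 lower (Csf1r and Adgre1), where 17.7% and 30.4% of all genes were. In HCR these counts were 6 and 0 with each array's interquartile range of log2 values in the fit and 6 and 1 without the 6 arrays. C1qb, a complement subunit, rose by 1.47 ± 0.12 in LCR and 1.06 ± 0.12 in HCR, and Lgals3, galectin-3, by 1.30 ± 0.10 in LCR and 0.75 ± 0.10 in HCR. The mean over the marker list, relative to all arrays, lay between 0.08 and 0.67 on LCR smoke arrays, against -0.93 and -0.42 on LCR sham arrays. It lay between -0.14 and 0.42 on HCR smoke arrays, against -0.51 and -0.13 on HCR sham arrays. No marker was listed at 0. In whole lung, more cells of a type and more RNA per cell cannot be told apart, and the part of macrophage number in the Mmp12 result was not tested.

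Within groups, Mmp12 followed the macrophage marker mean from animal to animal among smoke-exposed rats. In LCR smoke, Pearson's r was 0.73 (n = 12, permutation p = 0.0079, adjusted p = 0.0253) and Spearman's rho 0.60 (permutation p = 0.0437, adjusted p = 0.11). Without LCR smoke 0425 and 0426, on the 10 arrays left, r was 0.41 (permutation p = 0.243). Those 2 lay farthest from the median marker mean. Leaving them out narrows its range, so this test cannot decide whether the relation rests on those animals. In HCR smoke, r was 0.92 (n = 12, permutation p = 4.0e-05, adjusted p = 0.00064) and rho 0.87 (permutation p = 0.0006, adjusted p = 0.0096). It was 0.79 without HCR smoke 0409 and 0419 (permutation p = 0.00743). The sham groups did not pass, with r = -0.04 in LCR sham (n = 7, exact permutation p = 0.939, adjusted p = 0.953) and 0.26 in HCR sham (n = 7, exact permutation p = 0.534, adjusted p = 0.61). These tests are two-sided and belong to a family of 16 correlations. The 2 measures share an array, and so its RNA quality and scaling.

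**Figure D3:**
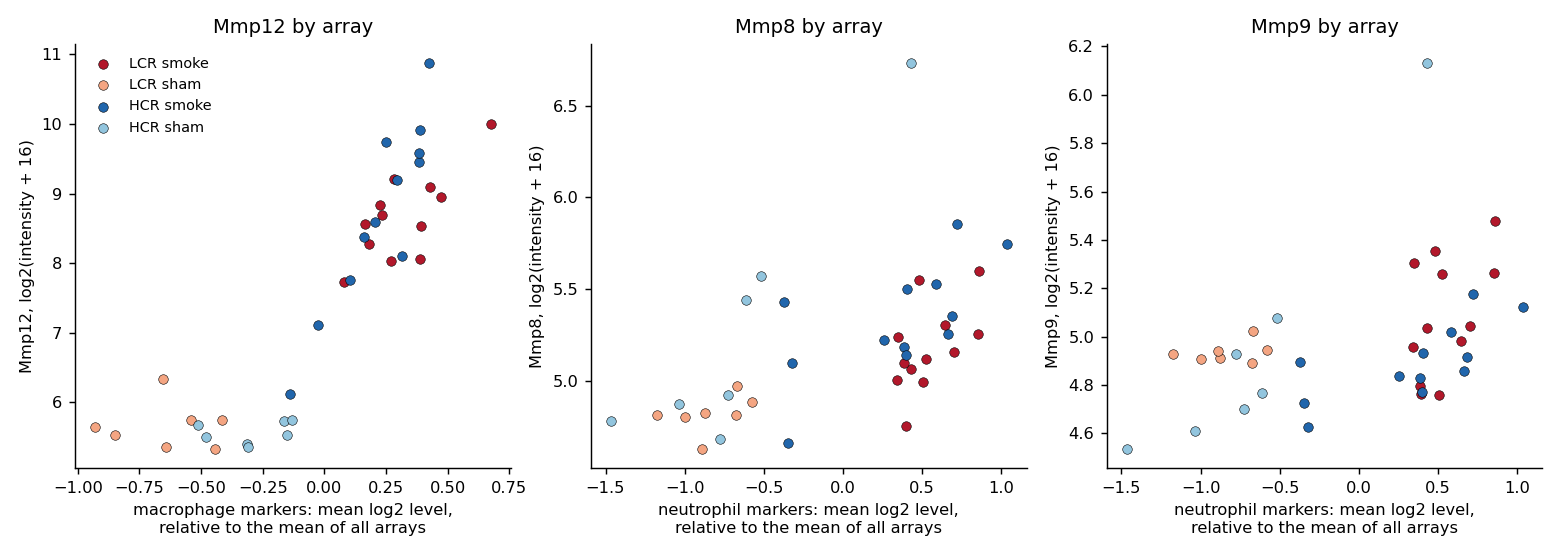
Level of Mmp12 against the mean of the macrophage markers, and of Mmp8 and Mmp9 against the mean of the neutrophil markers, each as log2 with 1 point per animal. The lowest HCR smoke point for Mmp12 is also the lowest of that group in macrophage markers, and HCR sham 0434 stands above all others for Mmp8 and Mmp9.

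Mmp7 (probe set 1368766_at), matrilysin, an epithelial MMP in rodents, rose in both lines. Its intensity had a lowest value of 5.22, a median of 6.26 and a highest of 14.6 in LCR smoke, against 4.10, 4.64 and 5.92 in LCR sham. The HCR smoke values were 5.49, 7.43 and 11.4, against 4.63, 5.05 and 7.03 in HCR sham. All 24 smoke arrays lay above the mean of their own line's sham arrays, but the groups overlapped, and 6 smoke arrays of each line lay above the highest sham array. The rise was 0.16 ± 0.05 in LCR (adjusted p = 0.0143) and 0.16 ± 0.05 in HCR (adjusted p = 0.0177), and 0.48 in LCR (adjusted p = 0.00521) and 0.46 in HCR (adjusted p = 0.00812) with a pseudocount of 1. With a covariate for each array's interquartile range of log2 values, Mmp7 was called in neither line (0.10 in LCR, adjusted p = 0.174, and 0.06 in HCR, adjusted p = 0.569). That range was itself narrower after smoke in both lines, at 2.92 ± 0.08 in LCR smoke (SD), against 2.97 to 3.04 in LCR sham, and at 2.86 ± 0.06 in HCR smoke, against 2.99 ± 0.04 in HCR sham. The HCR call of Mmp7 also ended with quantile normalization (adjusted p = 0.0562), with a covariate for the Gapdh 3′ minus 5′ difference (0.14, adjusted p = 0.0516) and without the 6 arrays with muscle signal (0.14, adjusted p = 0.0741). At these intensities, near the floor of the array, a fold change is not given.

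The neutrophil enzymes Mmp8 (probe set 1387735_at), a collagenase, and Mmp9 (probe set 1398275_at), a gelatinase, were called in neither line. Mmp8 had a lowest intensity of 11, a median of 19.2 and a highest of 32.4 in LCR smoke, against 8.70, 12.1 and 15.4 in LCR sham. HCR smoke arrays gave 9.31, 23.5 and 41.8, against 9.64, 14.3 and 90.3 in HCR sham. Of the 12 LCR smoke arrays 11 lay above the highest LCR sham array, whereas the highest HCR sham array, 0434, lay above every smoke array. The Mmp8 difference was 0.36 ± 0.18 in LCR (adjusted p = 0.086) and 0.04 ± 0.18 in HCR (adjusted p = 0.853). Without HCR sham 0434 the LCR difference stayed at 0.36 but passed (adjusted p = 0.0181), because the 4 groups share 1 estimate of the spread. The HCR difference for Mmp8 was then 0.29 (adjusted p = 0.0776).

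Mmp9 had a lowest intensity of 11.1, a median of 16.9 and a highest of 28.6 in LCR smoke, against 13.7, 14.4 and 16.5 in LCR sham. In HCR smoke it was 8.73, 13.4 and 20.2, against 7.19, 11.3 and 54.1 in HCR sham, the highest again on 0434. LCR smoke arrays fell on both sides of the narrow LCR sham range, 7 above it and 3 below. The differences were 0.15 ± 0.13 in LCR (adjusted p = 0.35) and -0.07 ± 0.13 in HCR (adjusted p = 0.677). Without 0434 the HCR difference of Mmp9 was 0.12 (adjusted p = 0.278), opposite in sign.

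Mmp8 and Mmp9 varied together: over the 38 arrays with group means removed their r was 0.87, the highest among the 36 pairs of members, where the next was Mmp7 with Mmp12 at 0.59. Of the 11 listed neutrophil markers 6 were measured. After smoke 5 of these were higher and 0 lower in LCR (22.7% and 27.9% of all genes), and 4 higher and 0 lower in HCR (17.7% and 30.4%). S100a9 rose by 2.84 ± 0.28 in LCR and 2.29 ± 0.28 in HCR. The marker mean lay between 0.34 and 0.86 in LCR smoke, against -1.17 and -0.58 in LCR sham, and between -0.37 and 1.03 in HCR smoke, against -1.47 and 0.43 in HCR sham. In HCR sham the r with that mean was 0.91 for Mmp8 (n = 7, exact permutation p = 0.00476, adjusted p = 0.0253; rho 0.89, adjusted p = 0.0492) and 0.94 for Mmp9 (exact permutation p = 0.00159, adjusted p = 0.0127; rho 0.89, adjusted p = 0.0492). Without 0434 and 0436, on the 5 arrays left, r was 0.75 for Mmp8 (exact permutation p = 0.125) and rho 0.9. For Mmp9 r was then 0.73 (exact permutation p = 0.158) and rho 0.7. With 5 arrays, these tests cannot decide whether the relations rest on those 2 animals.

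Among HCR smoke arrays r with the neutrophil mean was 0.66 for Mmp8 (n = 12, permutation p = 0.0174, adjusted p = 0.0464; rho 0.69, adjusted p = 0.0537) and 0.73 for Mmp9 (permutation p = 0.0075, adjusted p = 0.0253; rho 0.74, adjusted p = 0.0492). Without 0416 and 0419 these were 0.70 and 0.84. The LCR groups did not pass, with r for Mmp8 of 0.55 in LCR smoke (permutation, adjusted p = 0.126) and 0.44 in LCR sham (exact permutation, adjusted p = 0.467). For Mmp9 r was 0.48 in LCR smoke (permutation, adjusted p = 0.212) and 0.32 in LCR sham (exact permutation, adjusted p = 0.61). The part of neutrophil number in the levels of both genes was not tested.

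Mmp14 (probe set 1367860_a_at), the membrane-type enzyme that activates the MMP2 precursor on the cell surface, rose in both lines. It had a lowest intensity of 481, a median of 703 and a highest of 877 in LCR smoke, against 345, 502 and 622 in LCR sham. The HCR smoke values were 526, 654 and 960, against 328, 555 and 627 in HCR sham. The groups overlapped, with 8 LCR smoke arrays and 7 HCR smoke arrays above every sham array of their line. The rise was 0.45 ± 0.12 in LCR (adjusted p = 0.00236) and 0.37 ± 0.12 in HCR (adjusted p = 0.0118). The HCR call depended on HCR sham 0438, the lowest array, without which the difference of Mmp14 was 0.27 (adjusted p = 0.0571).

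Mmp2 (probe set 1370301_at), gelatinase A, made largely by fibroblasts and the substrate of Mmp14's activation step, was not called. It had a lowest intensity of 470, a median of 553 and a highest of 663 in LCR smoke, against 465, 569 and 635 in LCR sham. HCR smoke arrays gave 469, 539 and 697, against 454, 541 and 697 in HCR sham. The ranges nearly coincided. The differences were -0.01 ± 0.08 in LCR (95% interval -0.17 to 0.15, adjusted p = 0.912) and -0.01 ± 0.08 in HCR (-0.17 to 0.15, adjusted p = 0.949).

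Timp1 (probe set 1367712_at), an inducible and secreted inhibitor of most MMPs, rose in both lines. It had a lowest intensity of 418, a median of 495 and a highest of 667 in LCR smoke, against 267, 299 and 320 in LCR sham. In HCR smoke it was 373, 438 and 614, against 241, 350 and 480 in HCR sham. Every LCR smoke array lay above every LCR sham array, and the LCR groups did not overlap for 14.5% of all genes. In HCR 3 of 12 smoke arrays lay above the highest sham array. The rise was 0.73 ± 0.09 in LCR (adjusted p = 8.2e-08) and 0.33 ± 0.09 in HCR (adjusted p = 0.00375). With the interquartile range covariate the HCR rise of Timp1 was 0.32 and was not called (adjusted p = 0.0581). Timp1 did not follow Mmp12 within groups after adjustment. The highest r was 0.65 in LCR smoke (n = 12, permutation p = 0.0233, adjusted p = 0.0532; rho 0.53, adjusted p = 0.144), and it was 0.16 without LCR smoke 0420 and 0426. In LCR sham r was 0.35 (exact permutation, adjusted p = 0.61), in HCR smoke 0.37 (permutation, adjusted p = 0.388) and in HCR sham -0.03 (exact permutation, adjusted p = 0.953).

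Timp2 (probe set 1386940_at), a steadily expressed inhibitor that also takes part in MMP2 activation, fell in HCR. It had a lowest intensity of 2378, a median of 2512 and a highest of 2743 in LCR smoke, against 2308, 2455 and 2802 in LCR sham. The HCR smoke values were 2084, 2265 and 2527, against 2243, 2553 and 2856 in HCR sham. The LCR groups covered the same range, and 5 of 12 HCR smoke arrays lay below every HCR sham array. The difference was 0.01 ± 0.04 in LCR (adjusted p = 0.862) and -0.14 ± 0.04 in HCR (adjusted p = 0.00535). The HCR call of Timp2 ended under the interquartile range covariate (-0.07, adjusted p = 0.365) and with the mean of both its probe sets (-0.13, adjusted p = 0.173).

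Timp3 (probe set 1389836_a_at), the inhibitor that stays bound to the matrix, also fell in HCR. It had a lowest intensity of 2409, a median of 2844 and a highest of 3262 in LCR smoke, against 3010, 3121 and 3705 in LCR sham. HCR smoke arrays gave 2245, 2853 and 3312, against 2666, 3424 and 4679 in HCR sham. Of the LCR smoke arrays 7 of 12 lay below every LCR sham array, and of the HCR smoke arrays 3 of 12 below every HCR sham array. HCR sham spread more widely, with an SD of 0.25 log2, than LCR sham, with 0.11. The difference was -0.15 ± 0.07 in LCR (95% interval -0.30 to -0.001, adjusted p = 0.0854) and -0.31 ± 0.07 in HCR (adjusted p = 0.000894). With only the 2 LCR groups in the fit the LCR difference passed (adjusted p = 0.0306), and with the mean of its 4 probe sets the HCR call of Timp3 ended (-0.23, adjusted p = 0.0775).

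Several probe sets measured 5 of the members, and they did not all give the same answer. Here p is adjusted over all 20826 probe sets. For Mmp2 the dimmer probe set 1369825_at rose by 0.14 ± 0.05 in LCR (adjusted p = 0.0163) and 0.17 ± 0.05 in HCR (adjusted p = 0.00486), where the brighter one, 1370301_at, was not called. The dimmer one's intensities were low, with a median of 11.9 in LCR smoke against 10.1 in LCR sham, and 13.6 in HCR smoke against 10.4 in HCR sham. For Mmp14, 1378225_at rose in LCR (0.30 ± 0.08, adjusted p = 0.00366) and was not called in HCR (0.07 ± 0.08, adjusted p = 0.518). The difference between the lines at that probe set did not pass (0.23 ± 0.12, adjusted p = 0.319).
For Timp3, 1375138_at fell in LCR (-0.20 ± 0.07, adjusted p = 0.0116) and in HCR (-0.31 ± 0.07, adjusted p = 0.000321). The other 2, 1368989_at and 1372926_at, were called in neither line and had wide intervals. Both were lowest on HCR sham 0432, at 110 and 447 against group medians of 796 and 786. The second Timp2 probe set, 1367823_at, was also lowest there, at 181 against a median of 458, and was called in neither line (-0.23 ± 0.13 in LCR, adjusted p = 0.142, and -0.11 ± 0.13 in HCR, adjusted p = 0.503). At this probe set 9 of 12 LCR smoke arrays lay below every LCR sham array. Its SD was 0.56 log2 in HCR sham and 0.11 in LCR sham, and the 4 groups share 1 estimate of the spread. Neither probe set of Mmp9 was called.

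**Figure D4:**
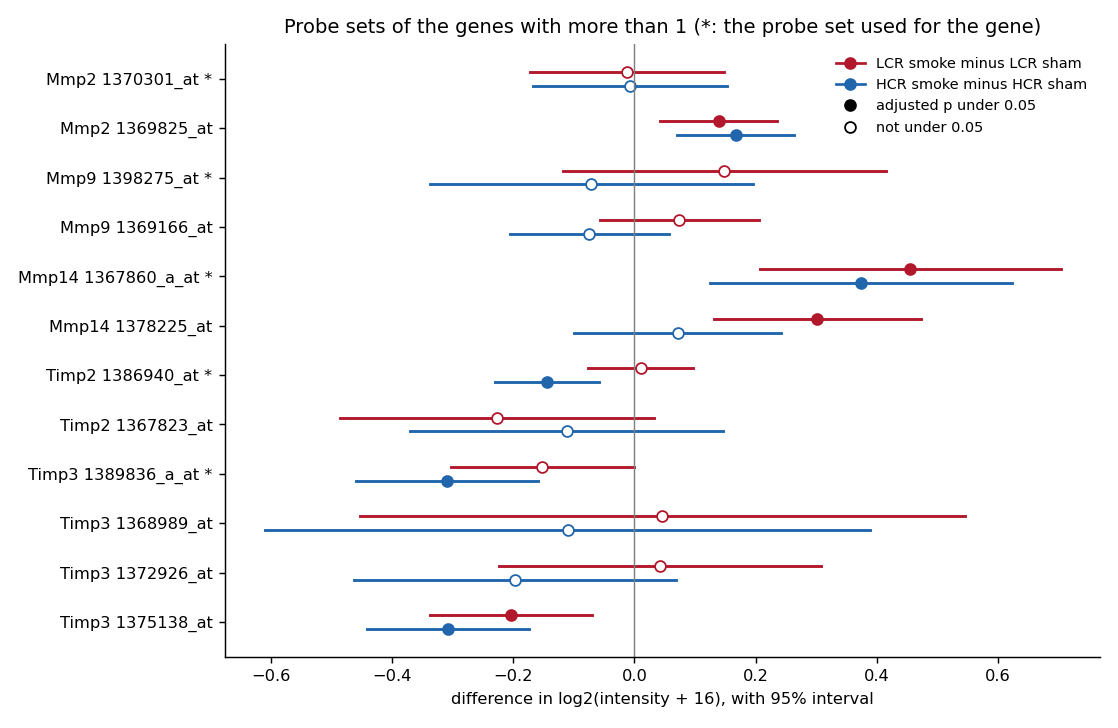
Change with smoke of every probe set of the 5 members that have more than 1, in LCR (red) and HCR (blue), as the difference of log2(intensity + 16) with its 95% interval. An asterisk marks the probe set used for the gene, and filled points passed an adjusted p of 0.05 over all probe sets. For Mmp2, Mmp14, Timp2 and Timp3 the probe sets of a gene differ in their calls.

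The lines were compared under each exposure and in their change with smoke. These comparisons share arrays with those above, so their values are not independent of them. Between LCR smoke and HCR smoke 1 of 9 members was called, where 6.32% of all genes were, 4.61% higher and 1.70% lower in LCR. Timp2 was higher in LCR smoke by 0.14 ± 0.04 (adjusted p = 0.0169), and all 12 LCR smoke arrays lay above the HCR smoke mean. The call rests on 1 probe set: 1367823_at gave 0.01 ± 0.11 (adjusted p = 0.954), and the call of Timp2 ended without the 6 arrays with muscle signal (0.12, adjusted p = 0.0806) and under the interquartile range covariate (0.11, adjusted p = 0.0977). Mmp12 differed by -0.07 ± 0.34 (95% interval -0.75 to 0.61, adjusted p = 0.922).

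Between LCR sham and HCR sham 0 of 9 members were called by limma, where 3.73% of all genes were (1.39% higher and 2.34% lower in LCR), and 2 had an unadjusted p under 0.05. These were Timp1 (-0.27 ± 0.11, p = 0.0139, adjusted p = 0.15) and Mmp8 (-0.47 ± 0.20, p = 0.0233, adjusted p = 0.194). All 7 LCR sham arrays lay below the HCR sham mean for both genes. HCR sham 0432 was the lowest of its group for Timp1, and without it the line difference was -0.36 (adjusted p = 0.0221). HCR sham 0434, the array with high neutrophil markers, stood at 90.3 for Mmp8 against at most 31.6 on the other HCR sham arrays, and without it the difference of Mmp8 was -0.23 (adjusted p = 0.513).

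In the interaction, the LCR change with smoke minus the HCR change, 0 of 9 members were called by limma, where 1.87% of all genes were (1.52% higher and 0.352% lower), and 2 had an unadjusted p under 0.05. The value for Timp1 was 0.39 ± 0.13 (95% interval 0.13 to 0.66, p = 0.00515), which did not pass (adjusted p = 0.0984). It passed without HCR sham 0432 (0.48, adjusted p = 0.0174) and in 4 of 50 alternatives in all. Timp2 gave 0.15 ± 0.06 (p = 0.0142, adjusted p = 0.148). For Mmp12 the interaction was -0.18 ± 0.55, with an interval of -1.30 to 0.94.

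The genes whose levels most resembled each member's from animal to animal were sought over the 38 arrays with group means removed, for the 6 members called in a smoke comparison. These correlations are descriptions, and the arrays share RNA quality and scaling. For Mmp12 they were Ctsk (r = 0.85), Fcgr2b (0.84) and Ctsb (0.82), which encode cathepsin K, an inhibitory Fc receptor and cathepsin B. Ctsk rose by 1.87 ± 0.19 in LCR and 1.14 ± 0.19 in HCR. The log2 difference of Fcgr2b with smoke was 1.37 in LCR and 1.05 in HCR. For Mmp7 they were Crybb2 (0.66), Slc16a8 (0.66) and Vstm2l (0.60), and for Mmp14 they were Fbxo9 (0.76), Cnot9 (0.72) and Myo5a (0.69). For Timp1 they were Dnaja2 (0.72), Psma5 (0.71) and Pcna (0.70). For Timp2 they were Tbcb (0.75), Ercc1 (0.74) and Stx8 (0.74), and for Timp3 they were Pals1 (0.68), Klf9 (0.67) and Scnn1a (0.65).

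Of the 17 other MMP genes listed, 11 were measured. In LCR 2 were called higher and 4 lower, where 22.7% of all genes were higher and 27.9% lower, and in HCR 0 higher and 5 lower, where 17.7% were higher and 30.4% lower. With quantile normalization, median-centred arrays, the interquartile range covariate or without the 6 arrays, 1 to 3 were higher and 4 lower in LCR, and 0 to 1 higher and 4 to 5 lower in HCR. Their median difference was -0.09 in LCR (-0.005 over all genes) and -0.15 in HCR (-0.03 over all genes). The membrane-anchored Mmp16 had a mean intensity of 70.2 ± 8.1 in LCR smoke, against 110 ± 8 in LCR sham, and of 70.4 ± 12.4 in HCR smoke, against 102 ± 13 in HCR sham (SD). It fell by 0.55 ± 0.07 in LCR and by 0.46 ± 0.07 in HCR. Mmp11, stromelysin-3, fell by 0.59 ± 0.10 in LCR and 0.68 ± 0.10 in HCR. Mmp28, an epithelial MMP, fell by 0.39 ± 0.05 in LCR and 0.49 ± 0.05 in HCR, and Mmp17, bound to the membrane by a lipid anchor, by 0.52 ± 0.05 in LCR and 0.31 ± 0.05 in HCR. For Mmp11, Mmp16 and Mmp28 every smoke array lay below every sham array of its line. Groups did not overlap, in either direction, for 14.5% of all genes in LCR and 5.87% in HCR. Membrane-type Mmp15 fell in HCR (-0.32 ± 0.09, adjusted p = 0.00349) and was not called in LCR (-0.09 ± 0.09, adjusted p = 0.392), and the difference between the lines did not pass (0.23 ± 0.13, adjusted p = 0.328).

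Mmp19, a secreted MMP, rose in LCR. Its mean intensity was 32.9 ± 5.2 in LCR smoke, against 20.1 ± 3.1 in LCR sham, and 22.0 ± 4.0 in HCR smoke, against 20.2 ± 3.9 in HCR sham (SD). It rose by 0.43 ± 0.07 in LCR (adjusted p = 2.8e-06), where every smoke array lay above every sham array. The LCR groups did not overlap for 14.5% of all genes. In HCR Mmp19 differed by 0.07 ± 0.07 (adjusted p = 0.395). The change was larger in LCR by 0.36 ± 0.10 (adjusted p = 0.0428), a call kept in 25 of 49 alternatives and lost without the 6 arrays with muscle signal (0.31, adjusted p = 0.165). Under smoke Mmp19 was higher in LCR than in HCR by 0.36 ± 0.06 (adjusted p = 0.0002), Mmp24 by 0.27 ± 0.06 (adjusted p = 0.00636), and Mmp23 was lower by 0.26 ± 0.06 (log2 difference -0.26, adjusted p = 0.0112). The call of Mmp23 ended under the interquartile range covariate (-0.22, adjusted p = 0.0585), and with its probe sets averaged the difference was -0.17 (adjusted p = 0.0289). Mmp10, at an intensity near 5, was called higher in LCR by 0.06 ± 0.02. Mmp3 and Mmp13, stromelysin-1 and a collagenase, were called in neither line.

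**Figure D5:**
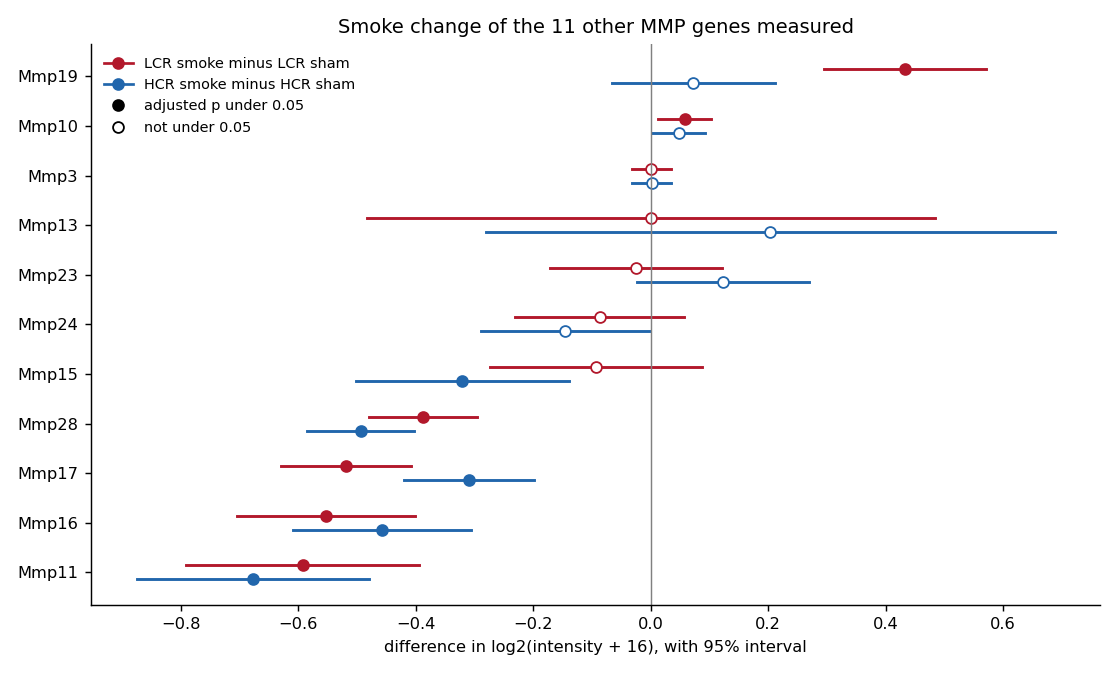
Change with smoke of the 11 other MMP genes measured, in LCR (red) and HCR (blue), as the difference of log2(intensity + 16) with its 95% interval. Filled points passed an adjusted p of 0.05. Mmp11, Mmp16, Mmp17 and Mmp28 lie below 0 in both lines and Mmp19 lies above 0 in LCR.

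Among other inhibitors of MMPs, 5 of 6 were measured, and 2 were called in each line, both lower. Of all genes 50.6% were called in LCR (22.7% higher, 27.9% lower) and 48.0% in HCR (17.7% higher, 30.4% lower). Timp4, the fourth TIMP, fell by 0.51 ± 0.08 in LCR and 0.41 ± 0.08 in HCR, and Reck, a membrane-anchored inhibitor, by 0.42 ± 0.07 in LCR and 0.31 ± 0.07 in HCR. Timp4 was dim, at 11.7 ± 1.6 in LCR smoke and 23.7 ± 6.5 in LCR sham (SD). Of 11 genes that activate, induce or clear MMPs, 10 were measured, and 4 were higher and 1 lower in LCR and 4 higher and 2 lower in HCR. Neither the inhibitor nor the activator counts stand apart from the share of all genes called. Plaur, the urokinase receptor, rose by 1.78 ± 0.19 in LCR and 0.86 ± 0.19 in HCR, and Lcn2, whose product binds MMP9, by 3.17 ± 0.43 in LCR and 2.09 ± 0.43 in HCR. The rise of Plaur kept its call under all 51 alternatives, but its size ran from 0.92 to 2.04 in LCR and from 0.46 to 0.97 in HCR. In LCR, Lcn2 spread widely, with a mean intensity of 921 ± 1525 in smoke and 104 ± 192 in sham (SD). There 4 of 12 smoke arrays lay above the highest sham array. Lcn2 is also made by neutrophils and injured epithelium. All 6 measured cathepsins rose in both lines, among them Ctsd by 0.94 ± 0.08 in LCR and 0.63 ± 0.08 in HCR, and this held with quantile normalization, median-centred arrays, the interquartile range covariate and without the 6 arrays. The neutrophil serine protease genes on that list were not measured by a probe set with 1 symbol.

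Of 18 related ADAM and ADAMTS genes, which shed surface proteins or cut proteoglycans, 15 were measured. In LCR 2 were higher and 5 lower, and in HCR 2 higher and 3 lower, so 7 of 15 and 5 of 15 were called, where 50.6% and 48.0% of all genes were. The split moved with the scaling. In HCR it was 3 higher and 2 lower with quantile normalization or median-centred arrays, 1 and 1 under the interquartile range covariate and 0 and 3 without the 6 arrays. In LCR 2 to 4 were higher and 4 to 5 lower under these alternatives. Adamts9 rose by 0.76 ± 0.17 in LCR and 0.51 ± 0.17 in HCR, and Adam15 fell by 0.27 ± 0.07 in LCR and 0.29 ± 0.07 in HCR. The HCR call of Adamts9 ended without the 6 arrays (0.38, adjusted p = 0.128) and with the Actb 3′ minus 5′ difference in the fit (0.43, adjusted p = 0.0557), and that of Adam15 under the interquartile range covariate (-0.23, adjusted p = 0.0691). Of 21 genes for matrix that these enzymes act on, all measured, 1 was higher and 8 lower in LCR (22.7% and 27.9% of all genes) and 2 higher and 7 lower in HCR (17.7% and 30.4%). Eln, the elastin gene, had a mean intensity of 271 ± 84 in LCR smoke, against 509 ± 173 in LCR sham, and of 319 ± 122 in HCR smoke, against 562 ± 117 in HCR sham (SD). It fell by 0.84 ± 0.23 in LCR and 0.86 ± 0.23 in HCR. The basement membrane collagen gene Col4a2 fell by 0.22 ± 0.09 in LCR and 0.48 ± 0.09 in HCR. With median-centred arrays the matrix counts were 3 higher and 4 lower in LCR and 3 higher and 6 lower in HCR. Under the interquartile range covariate they were 2 higher and 4 lower in LCR and 2 higher and 3 lower in HCR, and without the 6 arrays 1 higher and 9 lower in LCR and 1 higher and 5 lower in HCR.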

How the data were processed

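RNA of 38 lungs was measured on Affymetrix Rat Genome 230 2.0 arrays, 1 per animal. Per the labels' protocols, RNeasy columns gave the RNA, its quality was read on a bioanalyzer from Agilent, and biotin was the label. The authors deposited 1 linear intensity per array for 31099 probe sets, between 2.09 and 11558. The software that summarised and normalized them: not given in the sources used here. Without renormalizing, 16 was added and log2 taken. Among the probe sets 57 were controls, 20826 had 1 symbol, 436 several and 9780 none. The probe set with the highest mean stood for each of 14217 genes.

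A model of 4 group means took in every array, with limma 3.58.1 in R 4.3.3 (lmFit and eBayes, two-sided, 34 residual degrees of freedom), and p was adjusted by Benjamini-Hochberg over the genes tested. Correlations used permutation tests (all orders for 7 arrays, 100000 resamples for 12). Python 3.11.15 with pandas 2.3.3, NumPy 2.4.6 and SciPy 1.17.1 was used, figures with matplotlib 3.10.9. The test was checked on simulated data. Named genes were all members, up to 3 called genes of each list per comparison by p, and the 3 genes most like each called member. Outside this rule, and picked with their values known, are Adgre1, Csf1r, Mmp3, Mmp10, Mmp13, Mmp15, and values given in one line for genes named by the rule in the other. The members and lists were chosen with earlier results of these data known. Alternatives were a pseudocount of 1, an intensity trend with robust variance, every probe set tested, quantile normalization, median-centring, covariates for array spread and for Actb and Gapdh 3′ minus 5′ differences, array weights, the mean of probe sets, only the groups compared, a filter on dim genes, and leaving out arrays. No 2 arrays held the same values: at most 0.0611% of probe sets were identical.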

Additional observations from a re-analysis of the deposited data

Results flagged for a closer look

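Several results stood out by the spread within a group or by a difference between the lines. An array far from the others of its group is expected by chance in about 1 of 20 groups, and 26 groups were tested. Every array flagged below was a sham array, and these flags do not say whether an array of a smoke group stood apart.

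Among the members, Mmp7 stood at 4.53 log2 on HCR sham 0439, against 4.37 to 4.43 on the other HCR sham arrays. Mmp9 stood at 6.13 on HCR sham 0434, against 4.54 to 5.08, and at 5.02 on LCR sham 0446, where the rest of LCR sham spanned 4.89 to 4.94. Mmp12 stood at 6.34 on LCR sham 0442, against 5.33 to 5.75, and that array also had the highest heart muscle marker mean of its group. Mmp14 stood low on HCR sham 0438, at 8.43, against 9.02 to 9.33.

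The heart muscle marker mean was 4.08 on LCR sham 0442, where the rest of LCR sham spanned -1.04 to 1.11, and its skeletal muscle mean was 0.47, against -0.38 to -0.04. The skeletal muscle mean of HCR sham 0433 was 4.74, against -0.27 to 0.005 on the other HCR sham arrays.

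By limma's test of the difference itself, 1.87% of all genes were called in the interaction. On the lists, 1 of 11 other MMPs, 1 of 6 measured cathepsins and 2 of 10 measured macrophage markers were. For these 4 genes the change with smoke differed between the lines. It was larger in LCR than in HCR by 0.36 ± 0.10 for Mmp19 (adjusted p = 0.0428), by 0.44 ± 0.12 for the cathepsin Ctss (adjusted p = 0.0408), by 0.55 ± 0.14 for Lgals3 (adjusted p = 0.0317) and by 0.62 ± 0.16 for Mrc1 (adjusted p = 0.0361). Lgals3 and Mrc1 are macrophage markers. The call held in 25 of 49 alternatives for Mmp19, 30 of 50 for Ctss, 43 of 50 for Lgals3 and 35 of 50 for Mrc1, and for all 4 it ended without the 6 arrays with muscle signal. Ctss, Lgals3 and Mrc1 were also lower in LCR sham than in HCR sham, by -0.37 ± 0.09, -0.44 ± 0.11 and -0.43 ± 0.13 (log2 differences). That call held in 49 of 51 alternatives for Ctss, 50 of 51 for Lgals3, where it ended with only the 2 groups compared (adjusted p = 0.107), and 37 of 51 for Mrc1, with an adjusted p of up to 0.128, reached without HCR sham 0436.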

How the results depend on the processing

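No called difference of a member changed sign under 13 alternatives or when any 1 of the 38 arrays was dropped. With the interquartile range as a covariate, 3 members and 3024 genes were called in HCR (6 and 6830 otherwise), and 366 genes between the smoke groups. Between LCR smoke and HCR smoke 0 members were called with that covariate, with probe sets averaged per gene and without the 6 arrays with muscle signal, where 487 genes were (898 otherwise), and 2860 with array weights. Between the sham groups 1 member was called with the Actb or Gapdh covariate or array weights, and 946 genes with array weights, 830 with the interquartile range, 816 with median-centred arrays and 233 with only those groups (531 otherwise). In the interaction 1 member was called with either covariate and 2 with array weights, and 629 genes with Actb, 562 with Gapdh, 1537 with array weights, 552 with median-centred arrays and 58 without the 6 arrays (266 otherwise). The causes were not tested.

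Without the 6 arrays, 8 HCR smoke arrays were left. On these the correlations with neutrophil markers no longer passed (r = 0.67 for Mmp8, permutation, adjusted p = 0.137, and 0.75 for Mmp9, permutation, adjusted p = 0.0956). On all 12 HCR smoke arrays r was 0.66 and 0.73, so r itself did not fall. With quantile normalization Timp1 against Mmp12 passed in LCR smoke (r = 0.65, permutation, adjusted p = 0.0486). Median-centred arrays changed the split of calls to 5452 higher and 2970 lower in LCR (3225 and 3968 otherwise), to 3804 and 3362 in HCR (2513 and 4317) and to 169 and 647 between sham groups (198 and 333). Quantile normalization changed it to 420 and 379 between smoke groups (656 and 242) and to 181 and 89 in the interaction (216 and 50).

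Leaving out each array gave 4 to 5 members (5 without HCR sham 0434) and 6605 to 7367 genes in LCR, and 5 (without HCR sham 0438) to 6 members and 6262 to 6985 genes in HCR. It gave 1 member and 599 to 1246 genes between smoke groups, and 0 to 1 members and 314 (without HCR sham 0434) to 830 genes (without HCR sham 0432) between sham groups. The interaction had 0 to 1 members and 81 (without 0434) to 768 genes (without 0432), and 12 of the 38 arrays moved that count by over 1.5 times: HCR sham 0432, 0434, 0435, 0436 and 0439, HCR smoke 0412 and 0419, LCR sham 0441, 0442 and 0445, and LCR smoke 0420 and 0429. No paired analysis was possible because array numbers are not shared between groups. Precision is limited by 7 sham arrays per line and, for Mmp7, Mmp8 and Mmp9, by intensities near the array's floor.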

Other observations

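Several markers of structural and vascular cells fell after smoke, where 27.9% of all genes were lower in LCR and 30.4% in HCR. Of 8 measured endothelial markers 7 were lower and 0 higher in LCR and 6 lower and 0 higher in HCR, among them Ace, the angiotensin-converting enzyme of lung capillaries, which fell by 0.58 ± 0.06 in LCR and 0.49 ± 0.06 in HCR on the log2 scale. Of 10 smooth muscle and pericyte markers 8 were lower in LCR and 4 in HCR, with 0 higher in either, and under the interquartile range covariate 2 were lower in HCR. Pdgfrb, the pericyte growth factor receptor, fell by 0.86 ± 0.07 in LCR and 0.74 ± 0.07 in HCR. Its call held under all 51 alternatives, with log2 differences from -0.96 to -0.46 in LCR and from -0.82 to -0.22 in HCR. Of 10 fibroblast markers 5 were lower in LCR and 3 in HCR, with 0 higher, and Pdgfra fell by 0.53 ± 0.08 in both lines. The 3 and 4 of 10 in HCR lie near the share of all genes there.

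Of 10 lung epithelium markers 5 were higher and 2 lower in LCR (22.7% and 27.9% of all genes) and 2 higher and 2 lower in HCR (17.7% and 30.4%). With quantile normalization these were 3 and 2 in LCR and 1 and 3 in HCR, with median-centred arrays 6 and 1 in LCR and 3 and 1 in HCR, under the interquartile range covariate 6 and 2 in LCR and 0 and 2 in HCR, and without the 6 arrays 4 and 1 in LCR and 0 and 2 in HCR. Ager, a marker of flat alveolar cells, fell by 0.24 ± 0.05 in LCR and 0.39 ± 0.05 in HCR, and the surfactant protein gene Sftpd rose by 0.43 ± 0.05 in LCR and 0.17 ± 0.05 in HCR. The HCR call of Sftpd held in 46 of 51 alternatives, with an adjusted p of up to 0.203 under the interquartile range covariate (0.12). Of 5 measured mesothelial markers 0 were called in LCR and 2 were lower in HCR (Krt19 and Upk1b). The call of Upk1b ended under the interquartile range covariate (-0.85, adjusted p = 0.209), with only the 2 groups compared (-1.05, adjusted p = 0.054) and without the 6 arrays (-0.63, adjusted p = 0.202). By limma, 0 of 8 heart muscle, 0 of 8 skeletal muscle and 0 of 5 fat cell markers were called for smoke in either line, and at most 1 of each list under the scaling alternatives above.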
